A study of Mus musculus with 80 samples.

Results

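Gene expression in the liver of fed mice was compared between the early active phase and the early rest phase, using the 12 of 80 libraries whose titles name control animals killed at circadian time (CT) 16, 28 or 40. CT16 and CT40 are the same clock time on consecutive days, 24 h apart, and fall in the early subjective night, when mice are awake and eating; CT28 lies 12 h from both, in the early subjective day. Each time was represented by 2 males and 2 females, each library coming from the liver of a different mouse, so that 8 active-phase libraries were set against 4 rest-phase libraries. All animals were C57BL/6J, an inbred strain, and were 8 to 12 weeks old at purchase. They were housed in groups on standard chow, spent 10 days in a 12 h light and 12 h dark cycle, and were then moved to constant darkness, in which the samples were taken. Control animals always had food; the fasted counterparts used below for comparison had lost theirs at CT10, and so had been without food for 6, 18 and 30 h at the same 3 times. The tissue was the centre of the left liver lobe, and the libraries were stranded, poly(A)-selected RNA-seq.

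In the mammalian liver clock, CLOCK and BMAL1, or the CLOCK relative NPAS2, bind E-boxes and drive the genes of their own repressors, the PER and CRY proteins. REV-ERB (Nr1d1, Nr1d2) and ROR receptors compete for shared elements in genes such as Bmal1 and Npas2, and the PAR bZIP factors DBP, TEF and HLF carry rhythm to genes of metabolism. Feeding adds a further timing signal to liver, where genes of sugar, lipid, bile acid and protein metabolism are known to change over the day.

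The 12 libraries held between 29726111 and 53955947 counts on genes, with a median of 43451797.5. No pair from the same time looked like a library deposited again, and pairs from different times were not checked. Levels of Xist and Ddx3y matched the titled sex of 12 of 12 livers. Hepatocyte markers such as Alb were abundant in every library, summing to between 89930 and 129900 CPM (counts scaled to a common library size), and 0 of the 8 were called between phases. The first principal component (43.5% of the variance) separated the sexes, and the second (16.3%) separated CT28, with scores from -47.4 to -27.7, from CT16 and CT40, with scores from 9.9 to 26.3. On the third (9.77%), control CT16 male 1 (score 53.9) and CT28 female 2 (39.2) stood apart from the others (-17.9 to 2.14). CT16 male 1 was also the shallowest library, with 0.628% of counts on Rn18s-rs5 against a median of 0.118%. The next highest share was that of CT16 male 2, at 0.326%. Rn18s-rs5, Malat1 and Neat1 together summed to 7061 CPM in CT16 male 1 and 4116 CPM in CT16 male 2 against a median of 2016 CPM. Rn18s-rs5 is part of this sum, which is therefore no separate sign of more nuclear-retained RNA. Control CT40 male 1 stood apart on the fourth (6.35%) and had high acute-phase transcripts: Saa1 was at 6020 CPM there and at 14.8 to 82.1 CPM in the other 11 libraries. The phase difference was called for 3319 genes with all libraries, and for 3275 without CT16 male 1, 2708 without CT28 female 2 and 3176 without CT40 male 1. The part of these features in the phase differences was not tested. Levels below are CPM after TMM scaling of these 12 libraries, and differences are active minus rest on the log2 scale with their standard error (SE), from edgeR's quasi-likelihood test with Benjamini-Hochberg adjustment over all genes tested; a gene is called at an adjusted p under 0.05.

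Of 17704 genes tested, 3319 differed between the phases, which is 18.7%. Of these, 1604 (9.06%) were higher in the early active phase and 1715 (9.69%) were lower, with median differences of 0.46 and -0.46 among the called genes and of 0.00696 over all genes tested. At an unadjusted p under 0.05 the number was 5557. Differences of at least 1 on the log2 scale were seen for 274 genes that were higher (1.55%) and 291 that were lower (1.64%). The 8 active-phase values lay wholly above the 4 rest-phase values for 4.54% of all genes tested and wholly below them for 4.16%, and these included 1478 of the called genes. Without CT28 female 1 the number of called genes was 2179, the largest change from leaving out any library.

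The period genes, whose proteins repress CLOCK and BMAL1, rose in the active phase. Per2 was between 62.9 and 149 CPM in the 8 active-phase libraries, with a median of 115, and at 20.2, 15.9, 14.1 and 8.2 CPM in the 4 rest-phase libraries (difference 2.88 ± 0.29, adjusted p = 0.00014). Per1 was between 21.3 and 57.9 CPM, with a median of 36.5, against 5.16, 7.94, 4.03 and 10.3 CPM (2.44 ± 0.33, adjusted p = 0.00071). The groups did not overlap for either gene. Per3 was between 23.4 and 52.6 CPM in the active phase and at 21.3 and 20.7 CPM in the CT28 males but 9.59 and 3.53 CPM in the CT28 females (1.65 ± 0.41, adjusted p = 0.016). Its call was lost without CT28 female 1, with an adjusted p of 0.074.

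Among the other repressors, Cry1 rose and Cry2 did not pass the test. Cry1 was between 26.0 and 47.2 CPM in the active phase and at 6.44, 8.49, 11.7 and 21.6 CPM at CT28 (1.77 ± 0.23, adjusted p = 0.00056), whereas the difference for Cry2 was 0.21 ± 0.11 (adjusted p = 0.21). Ciart, which encodes the CHRONO repressor of CLOCK and BMAL1, rose by 2.17 ± 0.49, from 0.453 to 2.89 CPM at CT28 to 3.08 to 10.7 CPM (adjusted p = 0.010). Bhlhe40, encoding the E-box-binding repressor DEC1, was at 59.1 to 98.2 CPM at CT28 and 119 to 191 CPM in the active phase (1.00 ± 0.15, adjusted p = 0.0014). Bhlhe41 (DEC2) was scarce, at most 6.11 CPM, and its difference of -0.92 ± 0.47 did not pass (adjusted p = 0.21).

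RefSeq promoters, 250 bases before to 50 after a transcription start (GRCm38.p6), were searched for the E-box CACGTG, which reads the same on both strands. The match is a description of the letters and no evidence of binding. It was present in 31.6% of 19 promoters matched to 15 of the 19 core clock genes (6 promoters of 5 genes), in 11.8% of the promoters of called genes that were higher in the active phase, in 9.94% of those of genes that were lower and in 9.33% of the promoters of all genes tested. The promoters of 3 repressors that rose are shown for their E-boxes, which are in capitals: Per1 on chr11:69098699-69098998 (plus strand, E-box at -166 from the start), Cry1 on chr10:85185005-85185304 (minus strand, at -60) and Ciart on chr3:95882179-95882478 (minus strand, at -116, -58 and -44). The E-boxes of Ciart are 3 in number within the 300 bases. The table holds another Per1 promoter, at chr11:69099902-69100201, with 0 E-boxes, which is not shown.
Per1: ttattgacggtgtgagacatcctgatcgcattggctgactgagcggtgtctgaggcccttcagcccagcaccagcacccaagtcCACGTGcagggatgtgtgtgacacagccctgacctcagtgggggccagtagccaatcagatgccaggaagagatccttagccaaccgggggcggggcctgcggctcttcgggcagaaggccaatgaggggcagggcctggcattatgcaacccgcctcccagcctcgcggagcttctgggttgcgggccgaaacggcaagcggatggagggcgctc
Cry1: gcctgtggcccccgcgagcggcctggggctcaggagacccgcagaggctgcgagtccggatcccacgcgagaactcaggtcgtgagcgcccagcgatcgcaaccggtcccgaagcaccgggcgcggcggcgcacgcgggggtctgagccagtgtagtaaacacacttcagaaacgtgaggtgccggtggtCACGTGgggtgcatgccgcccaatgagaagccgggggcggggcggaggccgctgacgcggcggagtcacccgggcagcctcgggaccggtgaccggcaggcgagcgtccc
Ciart: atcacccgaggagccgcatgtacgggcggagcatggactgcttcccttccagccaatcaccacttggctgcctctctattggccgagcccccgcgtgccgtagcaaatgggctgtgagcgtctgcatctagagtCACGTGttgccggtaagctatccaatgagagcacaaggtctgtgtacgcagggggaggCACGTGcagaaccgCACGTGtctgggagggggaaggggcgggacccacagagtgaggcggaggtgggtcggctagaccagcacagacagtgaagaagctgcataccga

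Nr1d1, the gene of the repressor REV-ERB alpha, had the largest fall of any called gene that met the rule for naming. It was at 188, 202, 168 and 70.5 CPM at CT28 and at 4.03 to 11.6 CPM, with a median of 5.15, in the active phase (-4.68 ± 0.27, adjusted p = 5.6e-06), with no overlap. Its relative Nr1d2 (REV-ERB beta) fell less, by 0.83 ± 0.14 on the log2 scale (adjusted p = 0.0025), and the groups overlapped, at 38.5 to 91.5 CPM against 26.5 to 63.6 CPM. Rora, encoding a receptor that activates from the same elements (-0.14 ± 0.10, adjusted p = 0.41) did not pass.

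Of the activators, Npas2 fell and Bmal1 and Clock did not pass the test. Npas2 was between 0.122 and 2.53 CPM in the active phase, and at CT28 it was at 1.38 and 1.79 CPM in the males and 16.7 and 16.7 CPM in the females (-3.44 ± 0.38, adjusted p = 0.00027). Bmal1 had a difference of -0.03 ± 0.26 (adjusted p = 0.96). This value averaged CT28 levels of 9.88 and 12.9 CPM in males and 32.1 and 40.8 CPM in females, on either side of the active-phase range of 15.8 to 26.9 CPM. Clock lay within 67.8 to 85.8 CPM in all 12 libraries (0.05 ± 0.06, adjusted p = 0.56).

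Of the output factors, Hlf and Tef were called, both higher. Hlf rose by 0.50 ± 0.11 (adjusted p = 0.011), from 34.4 to 58.0 CPM at CT28 to 56.9 to 70.9 CPM. Tef rose by 0.81 ± 0.24 (adjusted p = 0.035), but its call held in only 6 of the 12 fits that each left out 1 library, with an adjusted p of up to 0.14 without CT28 female 1. Dbp did not pass (-1.60 ± 0.56, adjusted p = 0.069): it was at 73.8 and 79.9 CPM in the CT28 males, 13.7 and 1.72 CPM in the CT28 females and 6.15 to 21.7 CPM in the active phase. Nfil3, whose protein E4BP4 opposes the PAR bZIP factors, had a difference of -0.18 ± 0.18 (adjusted p = 0.55). Over the 19 core clock genes, 9 were higher, 3 lower and 7 not called, beside 9.06% higher and 9.69% lower of all genes tested.

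**Figure D1:**
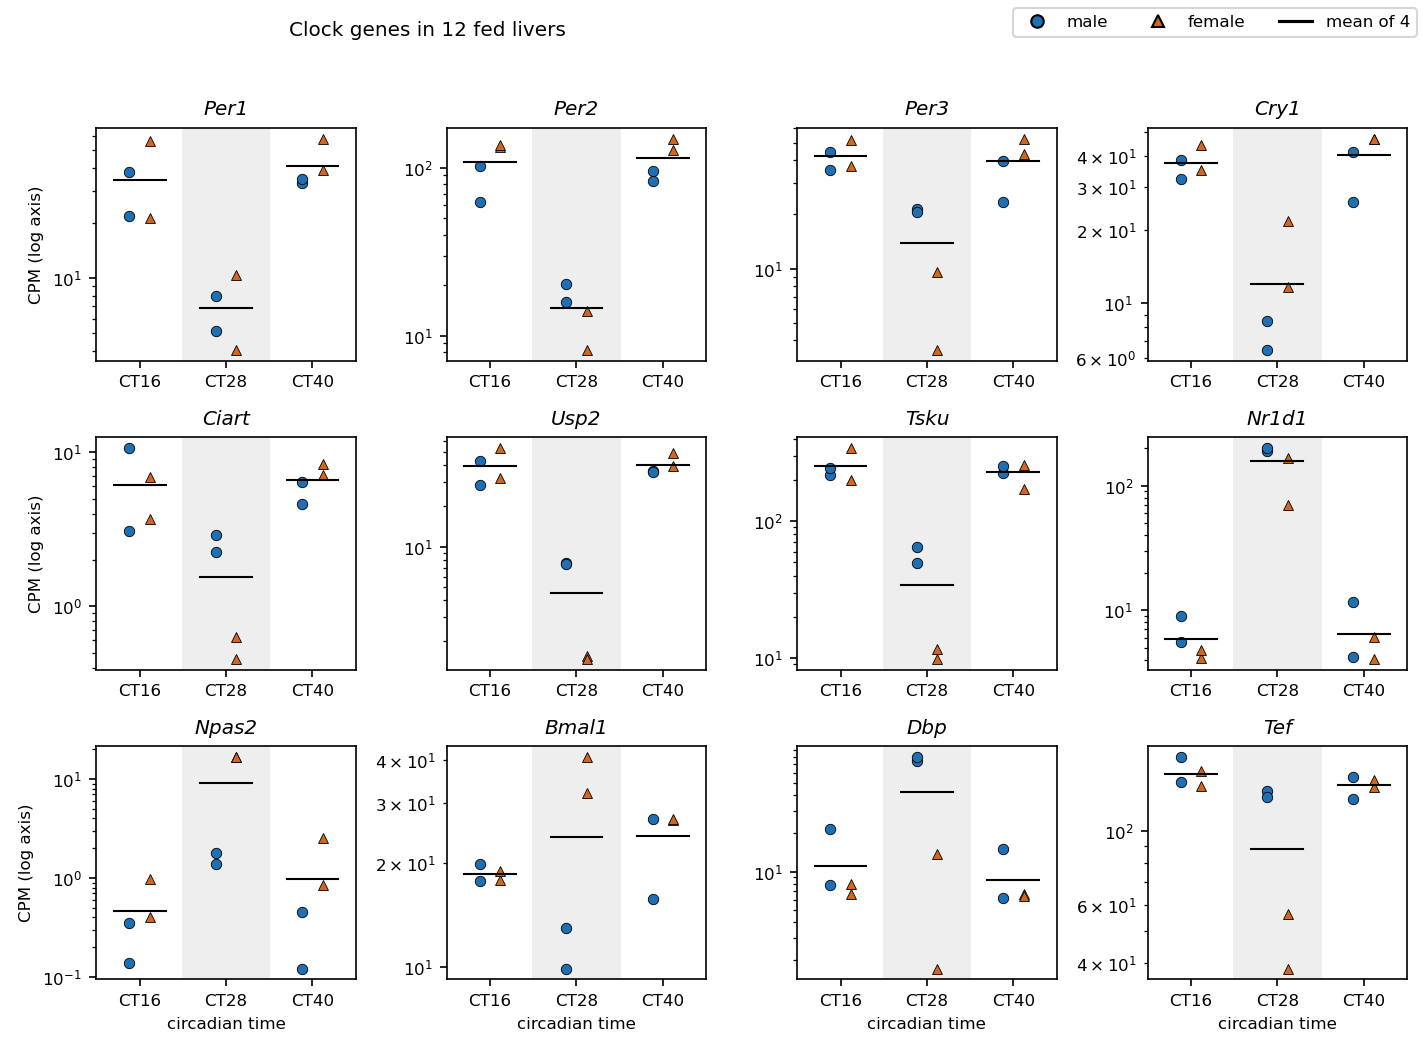
Levels of 12 clock genes (CPM, log axis) in the fed livers at CT16, CT28 and CT40, 1 point per library, with sex marked by the symbol. Nr1d1 is at 70.5 to 202 CPM at CT28 against 4.03 to 11.6 CPM in the active phase, while the CT28 points of Bmal1, Npas2 and Dbp divide by sex.

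Among 10 kinases, ligases and related enzymes that act on clock proteins, 2 were higher and 3 lower, beside 9.06% and 9.69% of all genes tested. Usp2, a deubiquitinase, rose from 7.57, 7.48, 1.56 and 1.47 CPM at CT28 to between 28.6 and 53.6 CPM, with a median of 37.6 (3.27 ± 0.45, adjusted p = 0.00082). Casein kinase gene Csnk1d rose by 0.20 ± 0.05 (adjusted p = 0.016), a call that was lost without CT28 female 1 (adjusted p = 0.058). The F-box genes Fbxl21 (-0.71 ± 0.16), whose protein acts on the turnover of CRY, and Btrc (-0.45 ± 0.09), which directs that of PER, fell, with adjusted p of 0.009 and 0.0066.

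The 10 largest rises that met the rule for naming (mean log2 CPM of at least 1, no overlap, symbols of predicted genes left out) were led by Usp2 and Tsku. Per2 and Per1, described above, were among them. Tsku, encoding the secreted protein tsukushi, was at 172 to 344 CPM in the active phase and at 64.7, 49.8, 11.6 and 9.78 CPM at CT28 (3.08 ± 0.46, adjusted p = 0.0013). Lingo4 rose from 0.669 to 0.926 CPM to 4.51 to 7.76 CPM (3.05 ± 0.18, adjusted p = 6.7e-06). The troponin C gene Tnnc1 and the myomesin gene Myom3, both best known from muscle, rose by 2.99 ± 0.26 and 2.79 ± 0.44 (adjusted p = 6.4e-05 and 0.0016) at low levels, with medians of 3.28 and 2.49 CPM in the active phase. Eif4ebp3, a repressor of cap-dependent translation, rose by 2.68 ± 0.35 (adjusted p = 0.00063), and Noct, encoding the rhythmic phosphatase nocturnin, by 2.38 ± 0.33 (adjusted p = 0.00088). Thrsp, a lipogenic regulator, was at 318, 276, 259 and 102 CPM at CT28 and at 878 to 2010 CPM, with a median of 1536, in the active phase (2.66 ± 0.32, adjusted p = 0.00040).

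The largest falls after Nr1d1 began with Trib3, a pseudokinase that binds AKT, which was at 6.63, 16.1, 12.9 and 3.35 CPM at CT28 and at 0.702 to 2.31 CPM in the active phase (-2.77 ± 0.34, adjusted p = 0.00045). Hectd2os, named as a transcript opposite to Hectd2, fell by 2.48 ± 0.29 (adjusted p = 0.00032), from 49.1 to 102 CPM to 4.17 to 19.9 CPM; whether its reads were counted by strand is not given in the sources used here. Depp1, a FOXO target, fell by 1.99 ± 0.38 (adjusted p = 0.0045), from 67.2 to 105 CPM to 7.62 to 48.1 CPM. Mrnip (-2.01 ± 0.26), Ndrg1 (-1.80 ± 0.20), Spon2 (-1.77 ± 0.26), Zc3h6 (-1.74 ± 0.26), Zc3h12d (-1.68 ± 0.23) and Gbp10 (-1.62 ± 0.27) completed the 10, with adjusted p of at most 0.0022. That the groups of these genes do not overlap is a condition of the rule that names them.

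The heat shock and cold-inducible genes were mostly called, with 21 of 25 higher and 1 lower in the active phase, beside 9.06% and 9.69% of all genes tested. Heat shock proteins are chaperones whose genes are under heat shock factor 1, and the RNA-binding proteins RBM3 and CIRBP are induced in the cold. The median difference over the list was 0.75, beside 0.00696 over all genes. Hspa8, the constitutive HSC70 chaperone, was at 556, 441, 634 and 466 CPM at CT28 and at 873 to 2068 CPM, with a median of 1556, in the active phase (1.40 ± 0.19, adjusted p = 0.00082). Its cochaperone gene Dnaja1 was at 148 to 153 CPM in the 4 CT28 livers and at 227 to 364 CPM in the others (0.97 ± 0.12, adjusted p = 0.00042). Hsph1, a nucleotide exchange factor of HSP70, rose by 1.55 ± 0.23 (adjusted p = 0.0013).

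The 2 cold-inducible genes moved in opposite directions. Rbm3 rose from 13.4 to 21.4 CPM at CT28 to 27.0 to 35.1 CPM (0.75 ± 0.11, adjusted p = 0.0012), while Cirbp fell from 19.7 to 27.7 CPM to 7.91 to 14.6 CPM (-1.20 ± 0.15, adjusted p = 0.00046). Both were without overlap, as were 17 of the list in the direction of a rise, beside 4.54% of all genes. The next 2 genes, both chaperones, were chosen after their values were seen. Hspa1b, encoding inducible HSP70, had the largest rise of the list, 2.27 ± 0.56 (adjusted p = 0.016), but its groups overlapped, at 0.996 to 5.98 CPM against 5.41 to 46.1 CPM. The call of Hspa1b was lost without CT28 female 1 (adjusted p = 0.074), and reads may be shared with its near-identical neighbour Hspa1a. Hsp90aa1 rose by 1.22 ± 0.20 (adjusted p = 0.0023), from 105 to 205 CPM to 224 to 400 CPM. The medians of the list were 0.51 in males and 0.89 in females, and 0.88 at CT16 and 0.73 at CT40.

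The heat shock element core GAANNTTC, which also reads alike on both strands, was found in 44.4% of 27 promoters of the list, matched for 20 of its 25 genes, and in 5.98% of the promoters of all genes tested. The elements in the promoters of an inducible gene, Hspa1b on chr17:34959189-34959488 (minus strand, at -104), and of the gene with the smallest p of the list, Dnaja1 on chr4:40722218-40722517 (plus strand, at -124), are shown in capitals. The other 2 Dnaja1 promoters in the table, starting at 40722672 and 40722680, held 0 and are not shown.
Hspa1b: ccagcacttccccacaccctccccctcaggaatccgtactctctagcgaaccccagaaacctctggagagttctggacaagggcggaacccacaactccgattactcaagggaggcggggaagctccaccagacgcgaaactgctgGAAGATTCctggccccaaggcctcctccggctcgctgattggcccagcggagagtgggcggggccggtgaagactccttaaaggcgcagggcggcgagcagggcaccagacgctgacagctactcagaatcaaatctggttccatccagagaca
Dnaja1: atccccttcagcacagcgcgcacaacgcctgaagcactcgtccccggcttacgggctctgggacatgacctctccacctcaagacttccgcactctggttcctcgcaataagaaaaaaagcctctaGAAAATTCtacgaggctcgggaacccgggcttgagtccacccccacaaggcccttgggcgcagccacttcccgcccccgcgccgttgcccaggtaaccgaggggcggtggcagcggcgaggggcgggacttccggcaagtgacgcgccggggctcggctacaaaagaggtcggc

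Genes of ribosome biogenesis, which make and process ribosomal RNA and assemble it with proteins in the nucleolus, were higher in the active phase for 36 of 50 and lower for 0, beside 9.06% and 9.69% of all genes tested, with a median difference of 0.42 beside 0.00696. Mybbp1a, a nucleolar transcription regulator, was at 50.04, 53.3, 54.1 and 61.5 CPM at CT28 and at 79.5 to 106 CPM in the active phase (0.67 ± 0.06, adjusted p = 6.5e-05). Nolc1, a nucleolar phosphoprotein, was at 17.1 to 23.6 CPM against 35.7 to 61.6 CPM (1.23 ± 0.12, adjusted p = 0.00011). Nop2, an rRNA methyltransferase, was at 12.9 to 15.6 CPM against 19.5 to 33.4 CPM (0.95 ± 0.12, adjusted p = 0.00059), and the 40S maturation factor gene Tsr1 at 15.4 to 17.1 CPM against 24.7 to 35.3 CPM (0.86 ± 0.09, adjusted p = 0.00018). In 23 of the 50 the active-phase values lay wholly above the others, beside 4.54% of all genes. Per library, the list's median deviation from the mean of the 12 libraries was -0.35 to -0.20 at CT28 and -0.08 to 0.31 in the active phase.

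The genes of the cytosolic ribosomal proteins themselves showed far fewer calls, 2 of 86 higher and 0 lower, beside 9.06% and 9.69% of all genes. Their median difference was 0.06. Rpl7l1, a paralogue of Rpl7 with a part in ribosome assembly, rose by 0.37 ± 0.06 (adjusted p = 0.0016). Rplp2 rose by 0.15 ± 0.04 (adjusted p = 0.038) in a call that held in 3 of 12 fits without 1 library, with an adjusted p of up to 0.12 without CT28 male 2. Endoplasmic reticulum chaperones and genes of the unfolded protein response had 0 calls in 30, beside 18.7% of all genes, and a median of -0.05.

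The E-box was present in 21.2% of 52 promoters matched to 44 of the 50 ribosome biogenesis genes, beside 9.33% for all genes tested. It is shown for the 2 genes of the list with the smallest p among those holding it within the named genes, Mybbp1a on chr11:72441077-72441376 (plus strand, at 40 after the start) and Nop2 on chr6:125131633-125131932 (plus strand, at -60).
Mybbp1a: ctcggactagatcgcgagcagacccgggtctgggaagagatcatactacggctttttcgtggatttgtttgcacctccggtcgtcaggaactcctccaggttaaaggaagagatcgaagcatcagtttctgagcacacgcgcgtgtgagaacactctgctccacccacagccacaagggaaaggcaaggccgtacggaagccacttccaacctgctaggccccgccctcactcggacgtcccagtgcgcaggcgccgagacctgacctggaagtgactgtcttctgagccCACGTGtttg
Nop2: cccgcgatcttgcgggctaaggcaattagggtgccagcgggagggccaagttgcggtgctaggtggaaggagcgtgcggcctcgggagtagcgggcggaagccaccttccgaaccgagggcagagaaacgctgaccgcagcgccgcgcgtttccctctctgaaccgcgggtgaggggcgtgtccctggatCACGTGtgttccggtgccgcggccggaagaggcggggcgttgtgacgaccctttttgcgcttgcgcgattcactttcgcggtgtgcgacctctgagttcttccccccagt

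**Figure D2:**
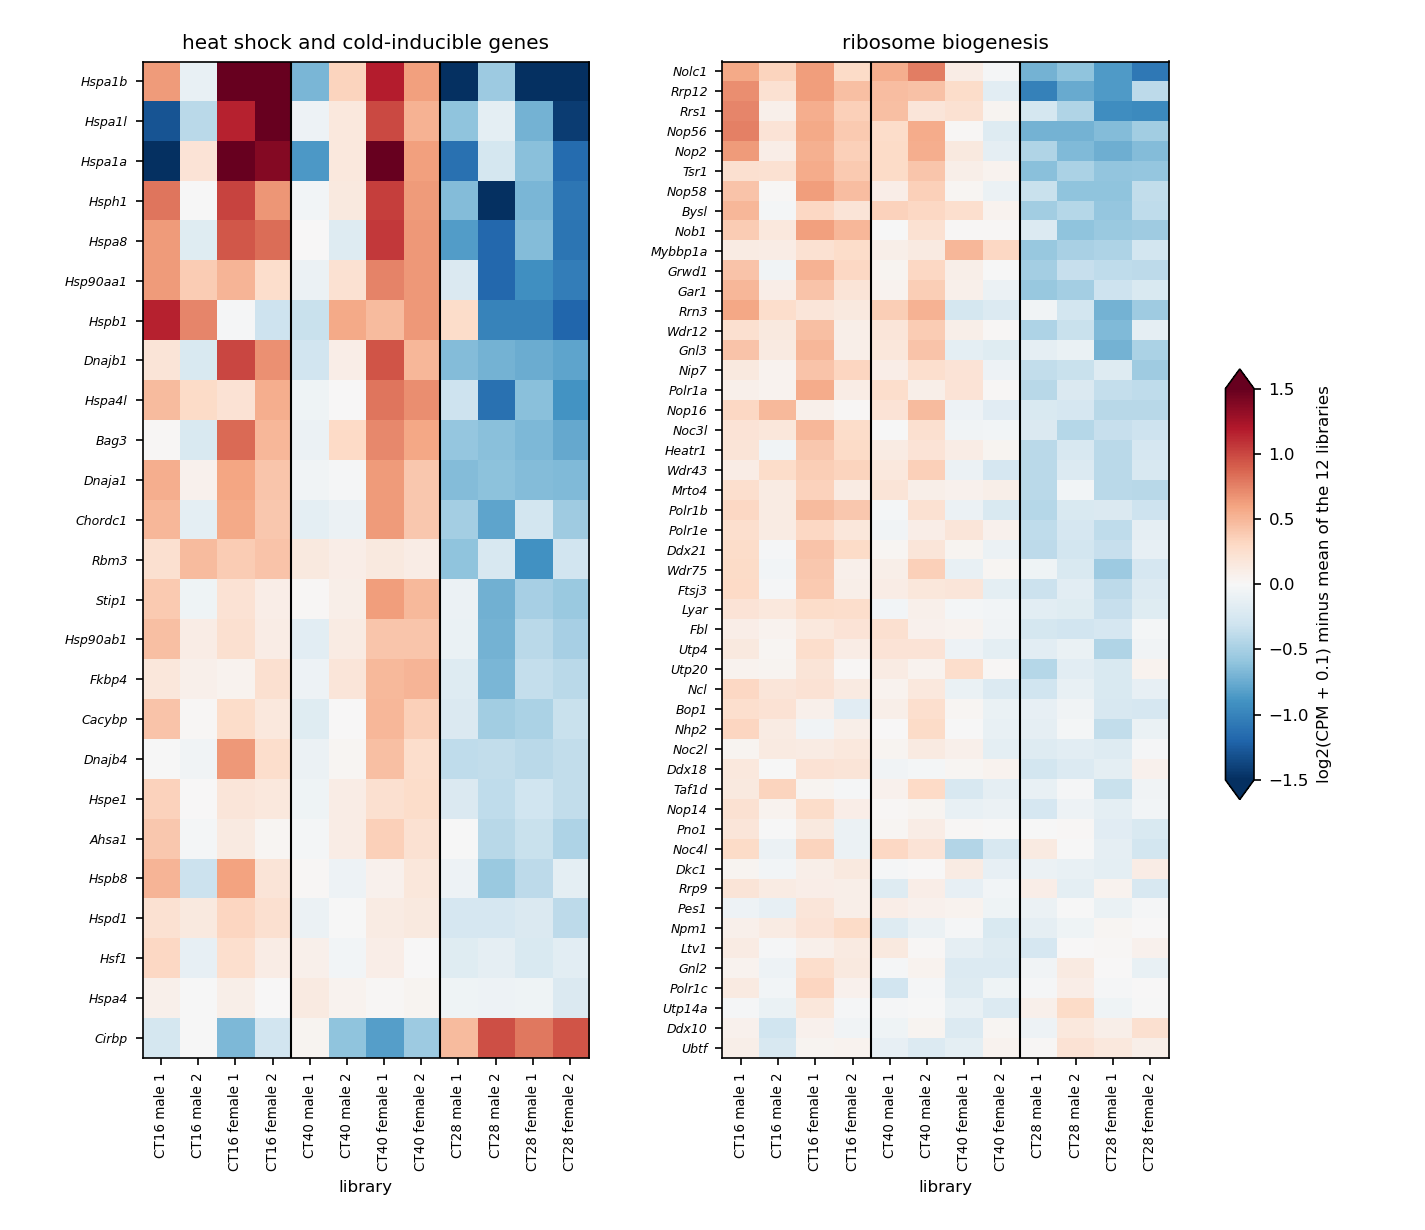
Heat maps of the 25 heat shock and cold-inducible genes and the 50 ribosome biogenesis genes in the 12 fed livers, as log2(CPM + 0.1) minus the gene's mean over the libraries, ordered by difference. The 4 CT28 columns at the right are low for most rows, and Cirbp runs the other way.

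Of 20 genes of fatty acid synthesis, 9 were higher and 1 lower, beside 9.06% and 9.69% of all genes tested, with a median of 0.43. These 2 percentages are also the background of the list counts that follow. Srebf1, the transcription factor gene of lipogenesis, rose by 0.67 ± 0.14 (adjusted p = 0.0077) and Mid1ip1, an activator of acetyl-CoA carboxylase, by 0.93 ± 0.15 (adjusted p = 0.0018). The synthase gene Fasn rose by 1.09 ± 0.34 (adjusted p = 0.043) with a wide spread, from 831 to 2466 CPM at CT28 and from 1200 to 5298 CPM in the active phase. Of the calls in this list, those of Acacb, Pnpla3, Elovl6 and Fasn held in 11, 9, 7 and 3 of the 12 fits without 1 library, with adjusted p of up to 0.064 and 0.072 for Acacb and Elovl6 without CT28 male 2 and up to 0.063 and 0.11 for Pnpla3 and Fasn without CT28 female 2. Elovl5, an elongase of polyunsaturated fatty acids, fell by 0.77 ± 0.14 (adjusted p = 0.0039).

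Genes of cholesterol synthesis and uptake had 4 of 26 higher and 1 lower and a median of -0.00. Hmgcs1, a synthase early in the pathway, fell by 0.89 ± 0.26 (adjusted p = 0.034), with 1278 CPM in CT28 female 1 and 419 to 448 CPM in the other CT28 libraries; without that library its adjusted p was 0.21. Pmvk, a kinase gene of the pathway (0.54 ± 0.14), was called in 10 of 12 fits without 1 library, with an adjusted p of up to 0.060 without CT28 female 2.

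In bile acid synthesis and transport, 3 of 18 genes were higher and 3 lower. Cyp7a1, the rate-limiting enzyme of bile acid synthesis, was at 118, 124, 69.1 and 157 CPM at CT28 and at 244 to 642 CPM, with a median of 375, in the active phase (1.73 ± 0.23, adjusted p = 0.00066). Abcb11, the bile salt export pump, was at 889 to 1099 CPM at CT28 and at 477 to 675 CPM in the active phase (-0.74 ± 0.09, adjusted p = 0.00053). Nr0b2, encoding the repressor SHP, fell by 1.27 ± 0.22 (adjusted p = 0.0030), whereas the gene of its inducer FXR, Nr1h4, rose by 0.44 ± 0.09 (adjusted p = 0.0068). The reductase gene Akr1d1 rose by 0.47 ± 0.08 (adjusted p = 0.0019) and the racemase gene Amacr fell by 0.37 ± 0.07 (adjusted p = 0.0047).

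In glucose metabolism, gluconeogenesis had 2 of 13 higher and 2 lower, and glycogen metabolism 2 of 14 higher and 3 lower. Ppp1r3b, which brings protein phosphatase 1 to glycogen, was at 136, 119, 213 and 217 CPM at CT28 and at 497 to 918 CPM in the active phase (1.98 ± 0.11, adjusted p = 5.6e-06), and the synthase gene Gys2 rose by 0.65 ± 0.14 (adjusted p = 0.0075). The phosphorylase kinase subunit genes Phka2 (-0.70 ± 0.11, adjusted p = 0.0013) and Phkg2 (-0.30 ± 0.07, adjusted p = 0.0083) fell. Pck1 and G6pc1, for the enzymes at the start and the end of gluconeogenesis, fell by 1.12 ± 0.31 (adjusted p = 0.027) and 0.68 ± 0.18 (adjusted p = 0.025). Pck1 was at 1191 to 2505 CPM at CT28 and 349 to 1516 CPM in the active phase. Without CT28 female 2 their adjusted p were 0.10 and 0.089. Slc37a4, the glucose-6-phosphate transporter, rose by 0.95 ± 0.17 (adjusted p = 0.0034), from 56.1 to 120 CPM to 164 to 211 CPM, and Gpt by 0.39 ± 0.07 (adjusted p = 0.0030).

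Of 15 genes of insulin signalling and FOXO, 3 were higher and 4 lower. Irs2, an insulin receptor substrate, fell from 35.2, 39.6, 66.5 and 71.0 CPM at CT28 to 10.8 to 27.96 CPM (-1.31 ± 0.20, adjusted p = 0.0015). Pik3r1, a regulatory subunit of PI3 kinase, rose from 58.9 to 81.4 CPM to 99.7 to 146 CPM (0.80 ± 0.11, adjusted p = 0.00076), and Akt1 by 0.37 ± 0.08 (adjusted p = 0.0083). The sestrin genes Sesn1 (-0.40 ± 0.07), Sesn2 (-0.73 ± 0.12) and Sesn3 (-0.51 ± 0.07) fell, with adjusted p of 0.0037, 0.0021 and 0.00081. Sesn2, Trib3 and Atf5 (-0.99 ± 0.08, adjusted p = 6.4e-05) were the 3 genes of the integrated stress response that fell, of 14 tested, and 0 rose; Trib3 is in both lists.

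Glucocorticoid-responsive genes had 6 of 15 higher and 1 lower, with a median of 0.61. Tsc22d3 (GILZ) was at 38.4, 45.3, 44.1 and 51.1 CPM at CT28 and at 72.8 to 153 CPM in the active phase (1.37 ± 0.17, adjusted p = 0.00047). Ddit4, a repressor of mTORC1, rose by 1.26 ± 0.22 (adjusted p = 0.0031), from 5.58 to 8.65 CPM to 11.1 to 28.4 CPM. The FKBP51 gene Fkbp5 (1.28 ± 0.31, adjusted p = 0.015) was called in 10 of 12 fits without 1 library, with an adjusted p of up to 0.058 without CT28 male 2. Pik3r1 (0.80 ± 0.11), which also stands in the insulin list, was among the 6, as was Sult1e1 (1.73 ± 0.47), below 1.5 CPM in every library and called in 10 of 12 fits with an adjusted p of up to 0.082 without CT28 female 1. Klf9 fell by 0.64 ± 0.15 (adjusted p = 0.011), and the receptor gene Nr3c1 rose by 0.21 ± 0.06 (adjusted p = 0.029), a call held in 6 of 12 fits with an adjusted p of up to 0.094 without CT28 male 2. Immediate early genes divided as 4 higher and 3 lower of 16: Jun rose from 6.2 to 8.85 CPM to 13.1 to 17.0 CPM (1.08 ± 0.11, adjusted p = 0.00018), and Junb fell from 24.3 to 36.0 CPM to 7.16 to 13.9 CPM (-1.55 ± 0.14, adjusted p = 6.4e-05).

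In one-carbon metabolism, which supplies methyl groups through S-adenosylmethionine, 4 of 29 genes were higher and 3 lower, with a median of 0.14. Mat2a, whose enzyme makes S-adenosylmethionine, was at 53.1, 62.3, 49.2 and 44.7 CPM at CT28 and at 80.01 to 102 CPM in the active phase (0.80 ± 0.09, adjusted p = 0.00032). Ahcy, for the hydrolase that removes S-adenosylhomocysteine, was at 827 to 1086 CPM against 1375 to 1690 CPM (0.63 ± 0.08, adjusted p = 0.00058). Mtrr, which reactivates methionine synthase, rose by 1.00 ± 0.11 (adjusted p = 0.00020), and Sardh by 0.28 ± 0.07 (adjusted p = 0.016). Cbs, which diverts homocysteine to cysteine, fell from 552, 599, 600 and 1156 CPM at CT28 to 255 to 451 CPM (-1.14 ± 0.20, adjusted p = 0.0027). Mat2b had a difference of -0.21 with a call that held in 8 of 12 fits, and an adjusted p of up to 0.082 without CT28 male 2.

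NAD synthesis and sirtuins had 2 of 17 higher and 3 lower. Nampt, the rate-limiting enzyme of NAD salvage and an E-box gene of the clock, was at 47.5, 37.7, 50.5 and 55.1 CPM at CT28 and at 97.9 to 163 CPM in the active phase (1.39 ± 0.11, adjusted p = 6.4e-05), and the riboside kinase gene Nmrk1 rose by 1.40 ± 0.16 (adjusted p = 0.00027). Among 33 genes of xenobiotic metabolism, 7 were higher and 2 lower. Por, the reductase that supplies electrons to P450 enzymes, rose from 173 to 241 CPM to 316 to 809 CPM (1.26 ± 0.18, adjusted p = 0.0010), and Cyp2a5 by 1.43 ± 0.28 (adjusted p = 0.0053). Alas1, the first enzyme of heme synthesis, was at 285, 32.3, 123 and 104 CPM at CT28 and at 338 to 1252 CPM in the active phase (2.37 ± 0.53, adjusted p = 0.0099), while the later heme enzyme gene Ppox fell by 0.40 ± 0.07 (adjusted p = 0.0026).

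Further lists are given more briefly. Of 33 genes of the urea cycle and amino acid breakdown, 3 were higher, led by Asl (0.82 ± 0.13, adjusted p = 0.0015) and Prodh (0.83 ± 0.14, adjusted p = 0.0021), and 3 were lower, led by Kynu (-0.54 ± 0.10, adjusted p = 0.0037). Fatty acid oxidation, ketogenesis and PPARA targets had 1 of 33 higher, the lipid droplet gene Plin5 (0.81 ± 0.10, adjusted p = 0.00037), and 1 lower, Bdh1 (-0.49 ± 0.16, adjusted p = 0.049), whose call held in 2 of 12 fits and had an adjusted p of up to 0.19 without CT28 female 1. In the cell cycle list, Wee1, the kinase that holds back entry into mitosis, rose from 2.29 to 4.90 CPM to 12.7 to 18.0 CPM (2.14 ± 0.20, adjusted p = 8.7e-05); 2 of 27 were higher and 2 lower. Splicing regulators had 6 of 27 higher and 4 lower, among them Srsf10 (0.44 ± 0.06, adjusted p = 0.00090) and Srsf5 (-0.39 ± 0.05, adjusted p = 0.00071). NRF2 targets and glutathione genes had 1 of 18 higher, Txnrd1 (0.25 ± 0.06), and 2 lower, Gsr (-0.21 ± 0.06) and Gclc (-0.35 ± 0.10); these calls held in 11, 5 and 5 of 12 fits, with adjusted p of up to 0.068 without CT28 female 1, 0.093 without CT28 male 2 and 0.12 without CT28 female 2. Acute phase proteins had 1 of 21 higher, the interleukin 6 receptor gene Il6ra (0.72 ± 0.21, adjusted p = 0.033), called in 7 of 12 fits with an adjusted p of up to 0.12 without CT28 female 1, and 0 lower.

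**Figure D3:**
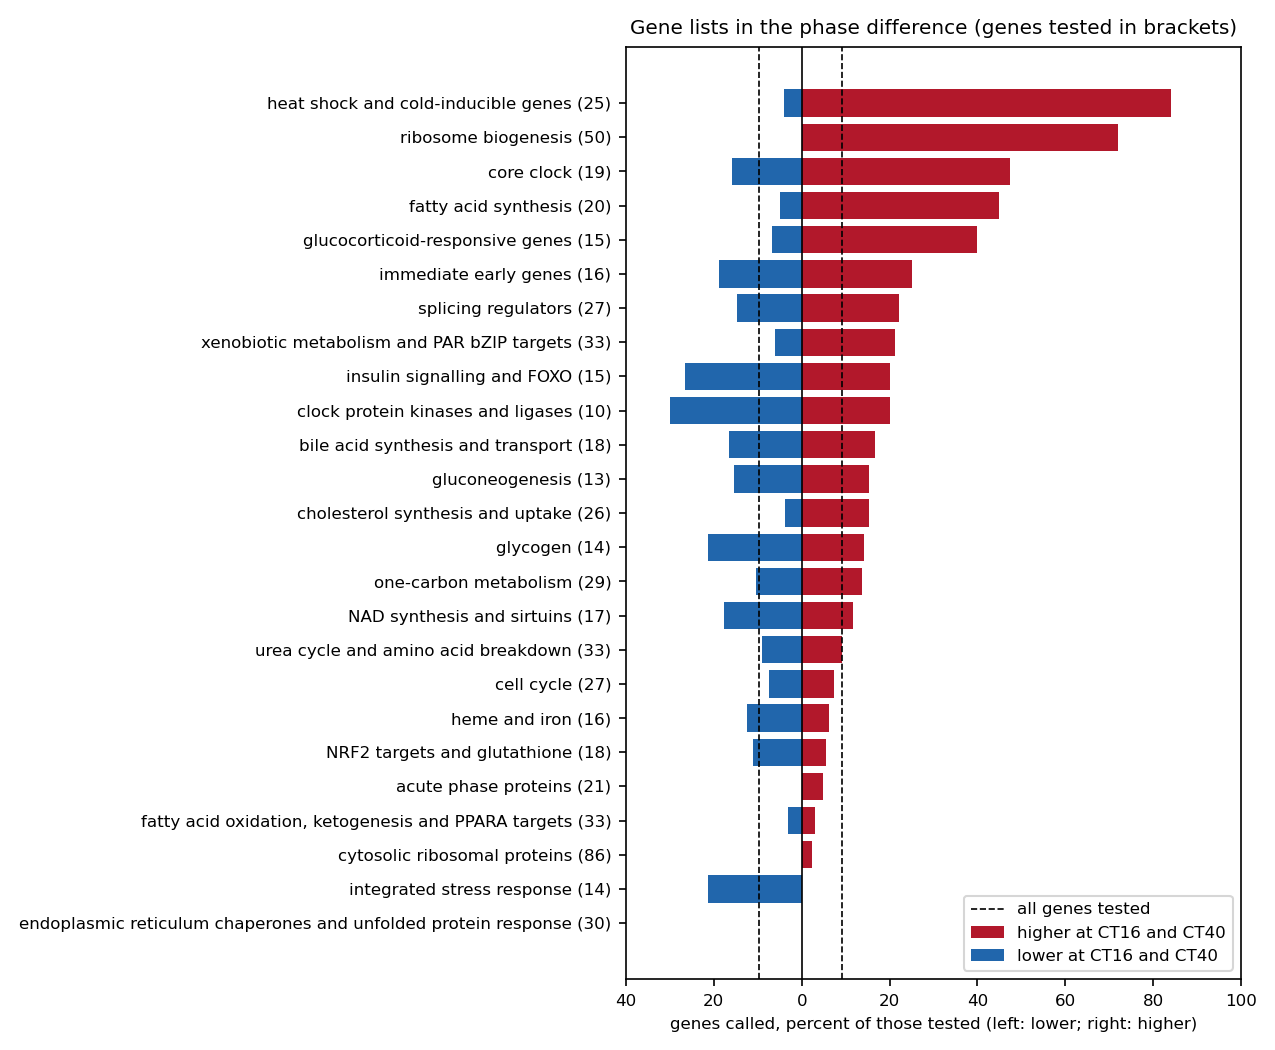
Percent of the tested members of each gene list that were called higher or lower in the early active phase; the dashed lines mark the same percentages over all genes tested, 9.06% and 9.69%. Heat shock and ribosome biogenesis genes stand far past the line for higher genes, with 21 of 25 and 36 of 50 members.

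Markers of most other cell types had no calls. None of the 8 Kupffer cell, 7 sinusoidal endothelial, 8 stellate cell and 6 cholangiocyte markers was called, each of these lists being detected in every library. Of 8 lymphocyte markers, 4 were lower in the active phase and 4 were not called. The differences of 3 of the 8 were above 0, the largest being 0.66. Those called lower included the B cell genes Ms4a1 (-1.44 ± 0.28, adjusted p = 0.0052), Cd79a (-1.07 ± 0.30, adjusted p = 0.027) and Cd79b (-0.82 ± 0.24, adjusted p = 0.033). They were chosen after their values were seen; the last 2 calls held in 8 and 4 of 12 fits without 1 library, with adjusted p of up to 0.091 and 0.12 without CT28 female 2. The lymphocyte markers summed to 2.53 to 7.895 CPM in the active phase and 6.26 to 11.1 CPM at CT28. In whole tissue, fewer cells of a type and less RNA per cell cannot be told apart. The globin genes Hbb-bs (0.59 ± 0.16, adjusted p = 0.027), Hba-a1 (0.51 ± 0.15, adjusted p = 0.039) and Hba-a2 (0.46 ± 0.14, adjusted p = 0.036), of red cells, rose. The other 2 of the 5 erythroid markers were not called, and the lowest difference of the list was -0.23. The 5 markers summed to 77.25 to 281 CPM in the active phase and 73.9 to 240 CPM at CT28. The sums ran from 73.9 to 120 CPM in females and from 203 to 281 CPM in males, and Alas2 held the most counts. The 3 globin calls held in 9, 3 and 6 of 12 fits, with adjusted p of up to 0.085 and 0.13 without CT28 male 2 and 0.12 without CT28 male 1, and reads of the near-identical Hba-a1 and Hba-a2 may be shared. The part of these cells in the other phase differences was not tested.

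Whether the active phase was alike on the 2 days was asked by comparing each day with CT28, and with each other. CT16 differed from CT28 in 2360 genes (13.3%), 1292 higher (7.3%) and 1068 lower (6.03%), and CT40 in 2345 (13.2%), 1133 higher (6.4%) and 1212 lower (6.85%). Both comparisons share the CT28 libraries. The count for CT16 minus CT28 was 1437 without CT28 female 1, 1547 without CT28 male 2 and 1554 without CT16 female 1, and that for CT40 minus CT28 was 1441 and 1498 without the same CT28 libraries and 1169 without CT40 female 1. With upper-quartile scaling in place of TMM the split for CT16 was 1066 higher and 1340 lower. Between CT40 and CT16, 0 of 17704 genes were called by edgeR, with 1417 at an unadjusted p under 0.05, 26 called by DESeq2 and 0 by limma-voom. Per2, for example, was at 62.9 to 137 CPM at CT16 and at 83.3 to 149 CPM at CT40. Fasn was more variable, at 4802 CPM in CT16 female 2 and 4502 and 5298 CPM in the CT40 females, but at 1200 to 1924 CPM in CT16 female 1 and the 4 males.

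At CT28 the values of many clock genes divided by sex, given here as a description. Of the 19, 16 had the 2 males wholly above or below the 2 females, beside 53.7% of all genes tested, and in 8 the means of the sexes were at least 2-fold apart, beside 7.09% of all genes. The corresponding numbers were 8 and 3 at CT16, where 43.6% and 5.49% of all genes did so, and 12 and 2 at CT40 (51.4% and 6.23%). At CT28 the females were lower in 12 of the 16, with Dbp, Tef, Per3 and Ciart among them, and higher in 4, with Bmal1, Npas2, Nfil3 and Cry1. Dbp was at 73.8 and 79.9 CPM in males and 13.7 and 1.72 CPM in females, and Tef at 132 and 127 CPM against 56.3 and 38.4 CPM.

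The sex difference in the phase difference itself was called for 0 of 17704 genes by edgeR, with 1098 at an unadjusted p under 0.05, 29 called by DESeq2 and 0 by limma-voom. On simulated counts with a sex difference of 1 on the log2 scale in 200 genes, the edgeR test found 23% of them. The smallest p belonged to Usp2, whose phase difference was 4.84 in females and 2.25 in males, with a female minus male difference of 2.59 (unadjusted p = 1.6e-05). Tsku (2.46) and Tef (1.42) followed in the same direction, and Ndrg1 (-1.32) and Bmal1 (-1.53) in the opposite one. With all 40 control libraries in the fit, which adds residual degrees of freedom, Usp2 (2.60) and Tef (1.43) passed, each at an adjusted p of 0.0058. Among the genes that DESeq2 called were also Per2, Per3 and Wee1. The phase difference alone was called for 495 genes in males (2.8%; 1.6% higher and 1.2% lower) and 1780 in females (10.1%; 5.03% higher and 5.02% lower), which is no test of a difference between the sexes.

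The neighbouring times place these values. With CPM scaled over all 80 libraries, Dbp in the fed livers was at 0.838 to 1.14 CPM at CT24 and 201 to 224 CPM at CT32, and at CT28 it was at 72.1 and 77.9 CPM in males and 13.3 and 1.67 CPM in females. Bmal1 was at 29.5 to 38.2 CPM at CT24 and 1.07 to 1.72 CPM at CT32, with 9.65 and 12.6 CPM in the CT28 males and 31.2 and 39.6 CPM in the CT28 females. For both genes the CT28 males thus lay between the levels of the times on either side. The CT28 females were near the CT24 range for Bmal1 and above it but below the males for Dbp. Usp2, by contrast, was lower in the CT28 females, at 1.52 and 1.43 CPM, than in any CT24 library, at 3.43 to 7.62 CPM.

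**Figure D4:**
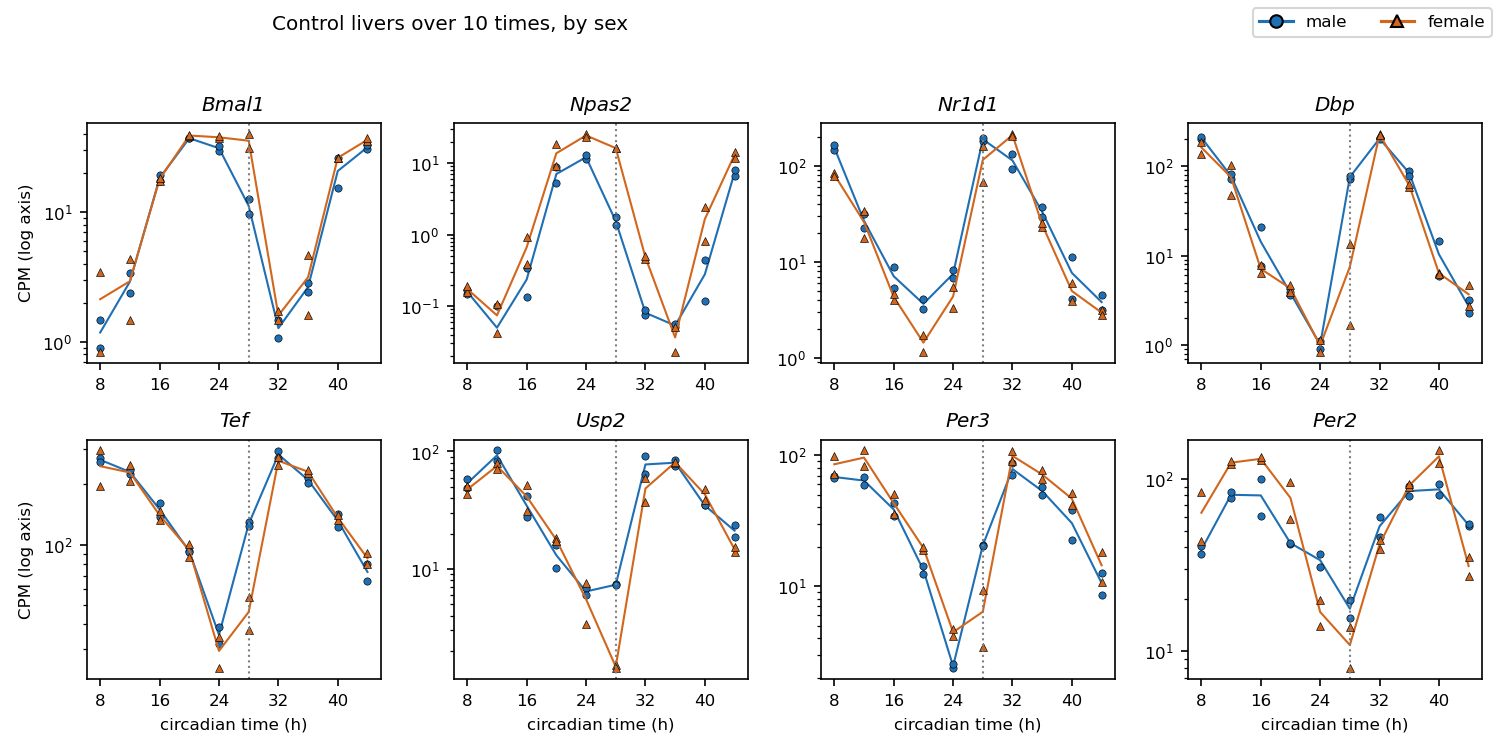
Levels of 8 clock genes and outputs (CPM scaled over 80 libraries, log axis) in the fed livers over the 10 times from CT8 to CT44, by sex, with a point per library and lines through the means of each sex. At CT28, marked by the dotted line, Dbp is at 72.1 and 77.9 CPM in males and at 13.3 and 1.67 CPM in females, and Bmal1 at 9.65 and 12.6 against 31.2 and 39.6 CPM; Npas2 and Per2 differ in level between the sexes at other times as well.

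To see which differences depended on food, the fed phase difference was set against that of fasted livers at the same times in a fit of 24 libraries. Of 18715 genes tested, 620 (3.31%) had a different phase difference, with fed minus fasted above 0 for 254 (1.36%) and below 0 for 366 (1.96%), with 3397 at an unadjusted p under 0.05; 309 of the 620 were among the genes called in fed liver. The count was 287 without fasted CT28 female 1, 349 without control CT28 male 2, 399 without fasted CT28 female 2, 411 without control CT28 male 1 and 1407 without fasted CT40 female 2. This last library was far from the other fasted CT40 livers in some named genes. Scaled over the 24 libraries, Ddit4 was at 527 against 4.34 to 41.8 CPM and Sesn1 at 238 against 11.7 to 12.2 CPM. The library checks above covered fed livers only, and the cause of the larger count was not tested. In the same fit the fed phase difference was called higher for 4.7% and lower for 5.24% of genes, and the fasted one for 10% and 10.6%. The fasted groups also differ in their hours without food, 6 and 30 h in the active phase and 18 h at CT28. Phase and length of the fast cannot be told apart in these animals. CPM in the following sentences are scaled over the 24 libraries, and each fed minus fasted difference is on the log2 scale.

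Cyp7a1 had a phase difference of 1.69 in fed and -1.78 in fasted liver (fed minus fasted 3.47, adjusted p = 0.021). In fasted females it was at 116 and 26.8 CPM at CT16, 494 and 466 CPM at CT28, and 18.4 and 146 CPM at CT40. In fasted males it was at 194 and 191 CPM at CT16, 119 and 146 CPM at CT28, and 9.08 and 18.5 CPM at CT40. Ppp1r3g, another glycogen-targeting subunit, stayed at or below 1.45 CPM in every fed liver and was at 18.3 to 84.5 CPM at CT16, 0.0905 to 6.85 CPM at CT28 and 7.42 to 117 CPM at CT40 in the fasted (-6.56, adjusted p = 0.0050). Pck1 (-1.76, adjusted p = 0.023), G6pc1 (-1.60, adjusted p = 0.013) and Irs2 (-1.5, adjusted p = 0.017) fell in the active phase when fed, and their fasted phase differences were 0.64, 0.94 and 0.20. Pck1 was at 338 to 1470 CPM in fed and 3160 to 6980 CPM in fasted livers of the active phase.

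The smallest p values of this comparison belonged to genes outside the lists. S1pr1, a receptor for sphingosine 1-phosphate, was at 77.3 to 102 CPM in the active phase and 66.8 to 74.5 CPM at CT28 in fed liver, and at 14.1 to 34.9 CPM and 33.6 to 52.7 CPM in fasted liver (1.37, adjusted p = 0.00059). Dyrk1b, a kinase, fell by 0.93 in fed liver and had a difference of -0.00 in fasted liver (-0.93, adjusted p = 0.00059). The difference was also negative for Slc25a32 (-1.33), a mitochondrial folate carrier gene, C9orf72 (-1.5) and Klhl24 (-1.61), and positive for Ajuba (1.69), Rnf144b (1.19), the noncoding Kcnq1ot1 (1.01) and the predicted gene Gm35742 (3.92), with adjusted p of at most 0.0020. C9orf72 was at 6.62 to 9.97 CPM in every fed liver and reached 35.6 CPM in fasted CT16 male 1.

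Among the clock genes, the phase difference of the 2 REV-ERB genes differed between fed and fasted liver, and that of the other 17 did not pass. The test compared phase differences, and so gives no answer on whether fed and fasted levels differed at a given time. Nr1d1 fell by 4.68 in fed and by 2.58 in fasted liver on the log2 scale (-2.10, adjusted p = 0.016); at CT40 it was at 3.93 to 11.3 CPM in fed and 22.4 to 70.5 CPM in fasted livers. Nr1d2 fell in fed liver and had a difference of 0.77 in fasted liver (-1.61, adjusted p = 0.0010). Per2 (0.67, adjusted p = 0.38) and Cry1 (0.03, adjusted p = 0.98) did not pass. In ribosome biogenesis the median phase difference was 0.42 in fed and 0.08 in fasted liver and 3 members rose in fasted liver, but the difference was called for 1 member, Nop2 (0.73, adjusted p = 0.039). In heat shock genes the medians were 0.74 and 0.45, and the difference was called for 0 of 25, with 4 higher in the fasted active phase. Of 26 genes of cholesterol synthesis and uptake, the difference was called for 6, beside 3.31% of all genes. The medians of that list were -0.00 in fed and 0.66 in fasted liver. In the fasted active phase 14 of its genes were higher, beside 10% of all genes. The cytosolic ribosomal proteins had medians of 0.05 and 0.21, with 43 of 86 higher in the fasted active phase and 0 called for the difference.

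**Figure D5:**
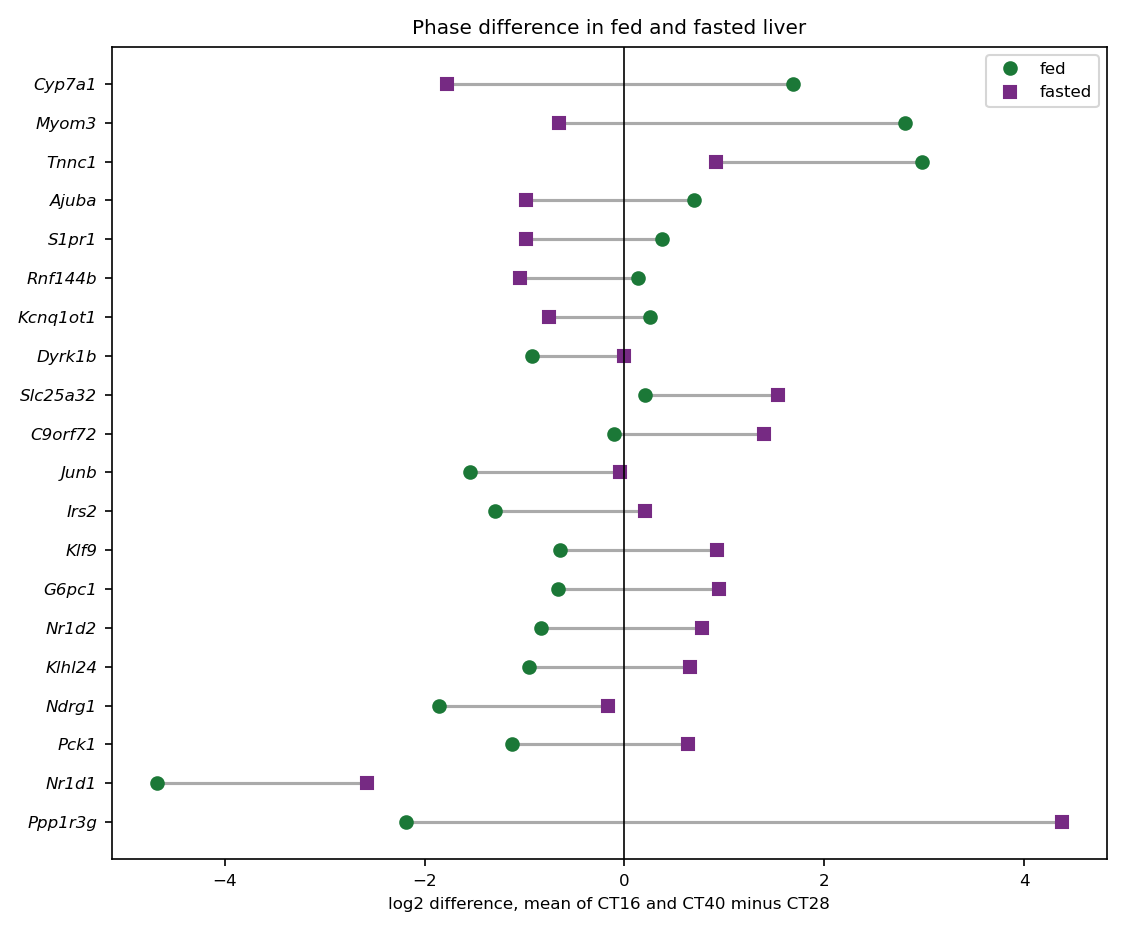
Phase difference (active minus rest, log2) of 20 genes in fed and in fasted liver, from the fit of 24 libraries. Cyp7a1 and S1pr1 lie above 0 when fed and below 0 when fasted, and Ppp1r3g, Pck1 and G6pc1 the other way.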

How the data were processed

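Raw counts of reads for 78275 genes in 80 livers were used as the authors deposited them, not normalized. The submitters' notes name Trimmomatic, HISAT2, DESeq2 and the build GRCm39; versions, annotation, the counting program and its use of strand are not given in the sources used here. The deposited normalized counts and exon-bin counts were not used. Groups were read from the titles; the characteristics give another sex in 40 libraries and another treatment in 40.

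Genes were filtered with filterByExpr (minimum count 10), scaled by TMM and fitted by edgeR's quasi-likelihood method (R 4.3.3, edgeR 4.0.16) with time and sex, contrasting the mean of CT16 and CT40 with CT28. The SE was taken as the log2 difference over the square root of F. The sex difference used a mean for each time and sex, and the fed minus fasted difference a mean for each treatment and time, plus sex. Alternatives used limma 3.58.1 and DESeq2 1.42.0. The edgeR test was tried on simulated counts for the phase difference, CT16 minus CT28, CT40 minus CT16, the sex difference and fed minus fasted. CT40 minus CT28, the other tools and the other checks were not tried in this way. The labels do not tie libraries to separate cultures or litters, so p-values measure the spread between these animals. Named genes were the core clock list, the 10 largest non-overlapping rises and falls, up to 4 called members per list and direction, and the 5 smallest p in each direction of the sex and food differences. Some genes that this rule names are not reported here. Members and lists were chosen with earlier results of these data known. Promoter sequences are from RefSeq (GRCm38.p6), matched by symbol for 11390 of 17699 symbols tested.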

Additional observations from a re-analysis of the deposited data

Results flagged for a closer look

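Within each group of 4 fed livers, the highest or lowest library was compared with the rest for the genes named in the report and for total counts, rRNA and mitochondrial shares and marker sums. Of 537 such groups, 24 had a library that stood apart by Dixon's criterion, where about 26.8 would be expected by chance at 1 in 20. The value given is the gap to the nearest library as a share of the group's range, on the log2 scale for genes and in its own unit for the others. In CT16 male 1 these were Dbp (0.843), Ahcy (0.873) and Nr4a1 (0.929), all high; in CT16 male 2, Atf3 (0.919, low); and in CT16 female 2, Elovl6 (0.925) and Pmvk (0.833), high, and Klf9 (0.933), low. In CT28 male 1, Jun (0.839) was high. In CT28 female 1, Fasn (0.868) and Hmgcs1 (0.941) were high, and G6pc1 (0.871), Kynu (0.881) and the summed adipocyte markers (0.829) were low. In CT28 female 2, Cbs (0.887) was high, and Slc37a4 (0.835) and Cyp2a5 (0.921) were low. In CT40 male 1, Saa2 (0.898) and Dbp (0.921) were high, and Bmal1 (0.983) and Bhlhe40 (0.897) were low. In CT40 male 2, Nmnat3 (0.905), Ms4a1 (0.874) and Nr1i2 (0.856) were low, and in CT40 female 2, Mat2a (0.878).

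The phase difference differed between fed and fasted liver in 620 genes by the test of the difference itself. Among the named genes, the fed minus fasted value on the log2 scale was positive for Gm35742 (3.92), Cyp7a1 (3.47), Myom3 (3.46), Tnnc1 (2.07), Ajuba (1.69), S1pr1 (1.37), Hbb-bs (1.35), Hba-a1 (1.34), Hba-a2 (1.32), Rnf144b (1.19), Kcnq1ot1 (1.01), Cbr1 (0.923), Nop2 (0.731) and Elovl1 (0.569). It was negative for Ppp1r3g (-6.56), Nr1d1 (-2.10), Pck1 (-1.76), Ndrg1 (-1.69), Klhl24 (-1.61), Nr1d2 (-1.61), G6pc1 (-1.60), Klf9 (-1.58), C9orf72 (-1.5), Irs2 (-1.5), Junb (-1.5), Slc25a32 (-1.33), Dyrk1b (-0.928), Abcc2 (-0.821), Cdk2 (-0.787) and Srsf5 (-0.534).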

How the results depend on the processing

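Counts are given for the phase difference, CT16 minus CT28 and CT40 minus CT28 in this order, with 3319, 2360 and 2345 genes as reported. An adjusted p under 0.01 left 1486, 873 and 796 genes, and a fold change of at least 1.5 left 1233, 1018 and 1023. Without the sex term the counts were 2037, 1307 and 1215, with males alone 244, 61 and 83, and with females alone 1206, 712 and 511. Leaving out 1 library gave 2179 to 3275, 1437 to 2293 and 1169 to 2617. CT40 against CT16 gave 26 genes by DESeq2, 1 with all 40 control libraries and 0 as reported. The sex difference in the phase difference gave 29 by DESeq2, 2 with all control libraries and 0 to 2 without 1 library. The fed minus fasted difference, 620 as reported, gave 136 at 0.01, 1197 by DESeq2, 1186 with all 80 libraries, 294 without the sex term, 83 in males, 31 in females and 287 to 1407 without 1 library. The cause of these shifts was not tested, except that stricter thresholds and fits to 1 sex use fewer genes or samples by construction. With DESeq2 size factors, upper-quartile scaling, either other filter or limma-voom, all 6 counts were within 1.5 times those reported.

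The numbers in the titles do not pair the animals: same-numbered libraries of different times had correlated deviations of -0.0505 to 0.0912. With sex and number as a replicate block, the counts were 3053 for the phase difference, 2041 for CT16 minus CT28, 2022 for CT40 minus CT28, 0 for CT40 against CT16, 0 for the sex difference and 575 for fed minus fasted.

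Of 165 named genes, 149 were called; 103 kept the call in every fit without 1 library, 46 lost it in at least 1, and 0 called genes turned in direction. The sign of some genes that were not called turned: with males alone Bmal1 was at 0.81, Clock at -0.0097, Cry2 at -0.017, Rora at 0.018, Nfil3 at 0.34 and Smyd5 at 0.29, and with females alone Bhlhe41 was at 0.34. Without 1 library, Bmal1 ranged from -0.28 to 0.23, Nfil3 from -0.32 to 0.12 and Smyd5 from -0.19 to 0.026. Among called genes, 44 lost the call without the sex term, 107 with males alone and 65 with females alone. The rest phase has 4 libraries of 1 time point, 2 of each sex, which limits the precision of every difference.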

Other observations

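Acute phase transcripts beside Saa1 were also high in 1 library. In control CT40 male 1, Saa2 was at 5517 CPM against at most 20.8 CPM in the other 11 fed livers, Lcn2 at 783 CPM against at most 20.3 CPM, and Orm2 at 443 CPM against at most 24.9 CPM. Their phase differences of 3.66, 3.72 and 2.18 had adjusted p of 0.17, 0.12 and 0.22 in edgeR's test.

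Other genes with small p for the sex difference were Gm74286, a predicted gene at 114 and 134 CPM in the CT28 males and 0.993 and 5.25 CPM in the CT28 females, and Loxl4, a lysyl oxidase relative, at 2.64 and 2.67 CPM in the CT28 males and 21.8 and 47.9 CPM in the CT28 females. Rsad2, an interferon-induced gene, was at 11.0 and 10.4 CPM against 22.2 and 24.7 CPM, and Ak4, a mitochondrial adenylate kinase, at 53.3 and 48.9 CPM against 34.7 and 34.9 CPM. None of these 4 passed by edgeR, with adjusted p of 0.30 for Gm74286, 0.46 for Loxl4, 0.43 for Rsad2 and 0.43 for Ak4, and DESeq2 called 29 genes, these 4 among them.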
